A study of Mus musculus with 2 samples.

Results

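The Nodal, activin, BMP and TGF-beta pathway was examined gene by gene in mouse embryonic stem (ES) cells of the E14TG2a line. The 56 genes were taken from a list of symbols covering ligands, the proteases that process them, extracellular antagonists, receptors, Smads and intracellular regulators, and 55 of them had a row among the 28592 genes of the deposited table. Gdf1 was not analysed here. Both libraries (n = 2) came from 1 group of cells, kept in 2i/LIF medium and labelled as ground state, with no other treatment, genotype or time point. This medium inhibits MEK and GSK3 and supplies leukaemia inhibitory factor. The labels do not tell whether separate cultures were used, and the spread between replicates may therefore be technical only. Total RNA was depleted of ribosomal RNA before strand-specific libraries were made. Values are FPKM, fragments scaled to transcript length and to the total of mapped fragments, which allows levels of different genes to be set side by side. The number of reads per library is not known. Since there was 1 group, levels are described and no test was made.

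Ligands of this family are secreted dimers that bring together type I and type II receptor kinases. The activated type I receptor phosphorylates receptor-regulated Smads, which join Smad4 and enter the nucleus. Nodal, activin and TGF-beta signal through Smad2 and Smad3, and the BMPs signal through Smad1, Smad5 and Smad9. Nodal also needs a co-receptor of the EGF-CFC family, and its targets Lefty1 and Lefty2 encode antagonists of Nodal itself. In the mouse embryo Nodal acts in the epiblast and in gastrulation, and ES cells make their own Nodal.

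The cells carried markers of pluripotency. A gene is called detected below if its FPKM reached 1 in each of the replicates. All 10 pluripotency markers were detected, and Pou5f1, Zfp42 and Nanog were the highest. Of the 9 primed epiblast markers 6 were detected (66.7%), Dnmt3b, Etv4 and Zic2 being the highest. The share over genes that RefSeq types as protein-coding was 50.6%. No fibroblast marker (0 of 16) and no primitive endoderm marker (0 of 12) was detected, and Krt8, Krt18 and Cdx2 were the 3 detected genes of 8 trophectoderm markers. Summed FPKM of the fibroblast markers was 1.37 in replicate 1 and 6.04 in replicate 2, with 13 of 16 higher in replicate 2, and S100a4, Col1a2 and Col3a1 were the highest by mean. Hnf4a, Pdgfra and Dab2 were the highest primitive endoderm markers, each under 1 in both replicates. Of the 16 fibroblast markers, 5 were listed at 0 in replicate 1 and 1 in replicate 2.

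The Nodal branch was represented by abundant RNA for its ligand, co-receptor and feedback antagonists, while most other ligands were at or near 0. All 8 Smads were detected. The receptors were mostly detected but low, with type II receptors lower than type I receptors in sum. In RNA from a whole culture, a low level from all cells and a higher level from a few cells cannot be told apart.

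Of the 55 genes 30 were detected (54.5%), against 39.4% of all genes in the table and 50.6% of the 20331 genes that RefSeq types as protein-coding. The share is close to that of coding genes in general. It differed by role, with all 8 Smads, all 5 nuclear partners, co-repressors and ubiquitin ligases, 6 of 10 receptors, 2 of 3 co-receptors, 4 of 9 antagonists, 4 of 17 ligands and 1 of 3 proteases detected. The median level of a role, in replicates 1 and 2, was 12.7 and 13.4 FPKM for the partners, co-repressors and ligases, and 5.43 in both for the Smads. For receptors it was 2.40 and 2.41, for antagonists 0.664 and 0.648, and for ligands 0.138 and 0.160. This order rests on the genes near 0. Without genes under a mean FPKM of 0.1 the median was 14.7 for antagonists and 9.05 for proteases, above receptors (3.13) and Smads (5.43), with ligands still lowest at 0.481. Receptors and Smads together averaged 2.41 and 2.39 in log2(FPKM + 1) (18 genes), and ligands and antagonists averaged 1.54 and 1.51 (26 genes). The difference was 0.87 ± 0.01 (SD, n = 2), and most of it came from genes near 0, since it was 0.21 without the genes under a mean FPKM of 0.1.

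**Figure D1:**
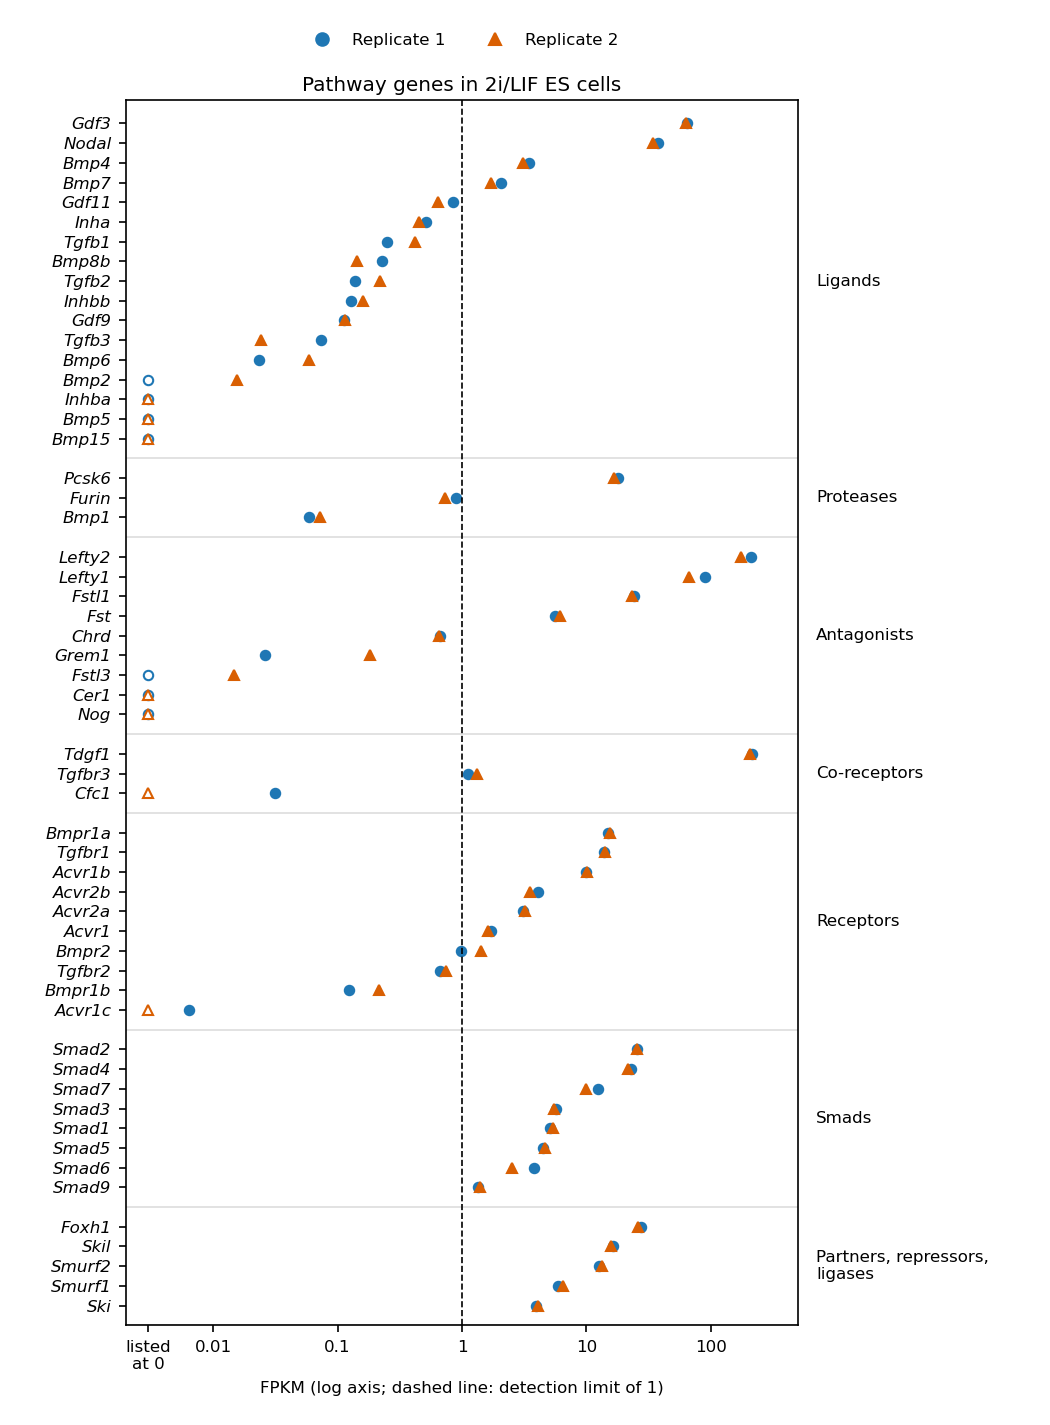
FPKM of each of the 55 pathway genes (log axis) in replicate 1 (circles) and replicate 2 (triangles), grouped by role, with open symbols for values listed at 0 and a dashed line at an FPKM of 1. Tdgf1 and Lefty2 lie furthest to the right, all 8 Smads lie right of the line, and 13 of 17 ligands lie left of it.

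The promoters of 4 genes are shown to set the most abundant gene of the pathway beside a relative near 0 and a receptor. Each is the 250 bases before the annotated start on GRCm38, from RefSeq, 5′ to 3′ on the gene's own strand, and capitals mark CpG dinucleotides. Tdgf1 and Cfc1 are the EGF-CFC co-receptors, Nodal is their ligand, and Bmpr1a is a type I receptor for BMPs. The Bmpr1a window lies inside the RefSeq span of the gene (34411061 to 34503336), before an annotated start within it. The windows are chr10:61417722-61417971 (plus strand) for Nodal, chr9:110946159-110946408 (minus strand) for Tdgf1, chr1:34535398-34535647 (plus strand) for Cfc1 and chr14:34502547-34502796 (minus strand) for Bmpr1a.
Nodal: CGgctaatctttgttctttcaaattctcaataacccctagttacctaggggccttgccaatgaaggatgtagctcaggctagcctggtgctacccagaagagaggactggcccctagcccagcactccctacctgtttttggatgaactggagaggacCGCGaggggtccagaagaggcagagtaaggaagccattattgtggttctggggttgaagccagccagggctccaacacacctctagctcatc
Tdgf1: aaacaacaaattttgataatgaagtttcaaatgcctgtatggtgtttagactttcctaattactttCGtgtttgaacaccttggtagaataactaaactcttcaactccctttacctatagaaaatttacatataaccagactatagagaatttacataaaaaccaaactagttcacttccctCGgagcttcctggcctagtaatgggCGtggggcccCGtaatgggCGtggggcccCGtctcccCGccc
Cfc1: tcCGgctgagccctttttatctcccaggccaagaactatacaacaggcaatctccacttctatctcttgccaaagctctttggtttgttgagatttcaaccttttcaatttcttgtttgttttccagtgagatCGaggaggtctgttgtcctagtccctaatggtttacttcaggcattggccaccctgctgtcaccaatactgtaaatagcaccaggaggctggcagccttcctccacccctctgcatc
Bmpr1a: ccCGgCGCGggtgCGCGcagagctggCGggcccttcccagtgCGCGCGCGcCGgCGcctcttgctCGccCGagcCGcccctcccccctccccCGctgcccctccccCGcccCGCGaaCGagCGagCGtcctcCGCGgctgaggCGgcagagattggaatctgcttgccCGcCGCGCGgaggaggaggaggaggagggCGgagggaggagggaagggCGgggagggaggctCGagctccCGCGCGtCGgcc

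Nodal had 3 CpGs in this window, Tdgf1 7, Cfc1 2 and Bmpr1a 36. Tdgf1 was the highest gene of the pathway and Cfc1 was near 0, and both windows were poor in CpG. Among the 17 detected genes with 1 promoter in the RefSeq table the median was 27 CpGs, and Nodal and Tdgf1 had the fewest and the highest levels of the 17. The next in number of CpGs were Bmp4 with 11 and Fstl1 with 16, and Ski had the most, 53. Among 17 genes not detected with 1 promoter the median was 17. For other protein-coding genes with 1 promoter the median was 17 CpGs in 6639 detected genes and 3 in 6953 genes that were not detected, so both groups of pathway genes had more. At most 7 CpGs were found in 2 of the 17 detected pathway genes (11.8%), and in 14.2% of the other detected coding genes. Lefty1, Lefty2, Gdf3, Foxh1, Smad2 and Smad4 were among the 16 genes with no entry in that table. Some windows besides that of Bmpr1a, such as those of Chrd, Inhba and Acvr2b, also lie inside the span of their gene.

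**Figure D2:**
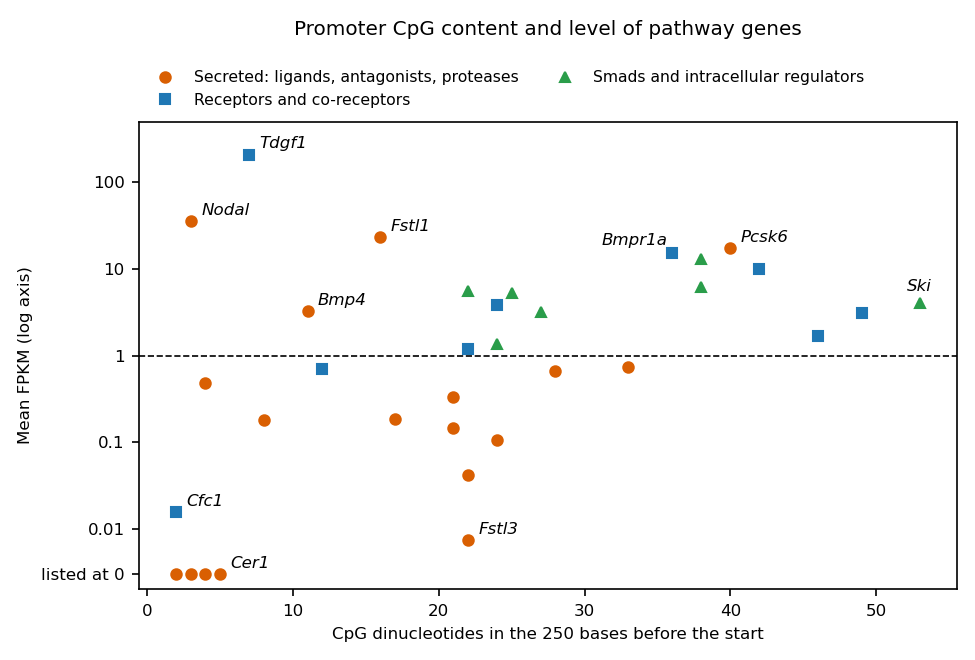
Mean FPKM (log axis) against the number of CpG dinucleotides in the 250 bases before the start, for 34 pathway genes with 1 promoter entry, with genes listed at 0 at the bottom and a dashed line at an FPKM of 1. Nodal and Tdgf1 stand at the upper left with 3 and 7 CpGs, and detected receptors, Smads and intracellular regulators stand at 22 to 53.

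Letters of known binding elements were searched on both strands of the same windows. The Smad half-site AGAC or its reverse complement GTCT was in 28 of the 34 single promoters of pathway genes, and in 82.9% of all 32841 promoters. It occurred at 3 places in Tdgf1 (starting 203, 112 and 12 bases before the start) and at 1 place in Cfc1 (110 bases before it), and was in neither the Nodal nor the Bmpr1a window. The Foxh1 element TGTGGATT or AATCCACA was in 0 of the 34, and in 0.719% of all promoters. A looser form, TGTNNATT or AATNNACA, was in 1 of the 34, against 10.9% of all promoters. That gene was Tdgf1, where AATTTACA began 127 and again 101 bases before the start, without overlapping each other or an AGAC. These matches are descriptions of letters, and binding was not measured.

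Nodal (chromosome 10, 61417972 to 61425338) was one of 4 detected ligands, with 37.3 and 34.3 FPKM in replicates 1 and 2. Its relative Gdf3 (chromosome 6, 122605403 to 122610087), which can act as a Nodal-like ligand and can also inhibit BMPs, was higher, at 63.7 and 62.9 FPKM. Gdf3 exceeded Nodal by 0.82 ± 0.07 in log2 (SD, n = 2), and their replicate values did not overlap. Together they made up nearly the whole summed level of the Nodal and activin ligands, which was 103 and 98.4 FPKM. The activin and inhibin subunits were below detection. Inha, the inhibin alpha subunit, was at 0.512 and 0.450 FPKM, and Inhbb, the beta B subunit of activin, was at 0.128 and 0.160. Inhba, the beta A subunit, was listed at 0 in both replicates. Gdf11, an activin-like ligand of axial patterning, was at 0.848 and 0.638 FPKM, just under the limit.

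Bmp4 (chromosome 14, 46383525 to 46390669), which together with LIF sustains mouse ES cells in serum-free culture, was at 3.42 and 3.08 FPKM. Nodal was higher than Bmp4 by 3.46 ± 0.02 in log2 (SD, n = 2). Bmp7 was the other BMP ligand detected, at 2.07 and 1.71 FPKM. Bmp4 held 59.6% and 61.6% of the summed BMP ligand level, and Bmp7 held 36.0% and 34.1%. Bmp8b, known for its part in germ cell formation, was at 0.226 and 0.142 FPKM, and its close copy Bmp8a was at 0.447 and 0.268. Reads may be divided between this pair, so their separate values are uncertain. Bmp6 was at 0.0236 and 0.0588, Bmp2 had 0.0155 in replicate 2 after a listing at 0 in replicate 1, and Bmp5 was listed at 0 in both.

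Every TGF-beta ligand was under the limit. Tgfb1 was at 0.251 and 0.420 FPKM, Tgfb2 at 0.138 and 0.218, and Tgfb3 at 0.0735 and 0.0245. The oocyte ligands were low too, with Gdf9 at 0.112 and 0.114 FPKM and Bmp15 listed at 0 in both replicates. The span of Gdf9 overlaps that of Uqcrq by 58 bases, and Uqcrq was at 59.1 and 67.4 FPKM. Bmp6 likewise overlaps Txndc5 by 49 bases, at 37.6 and 35.2 FPKM for Txndc5. Whether strand was used in the counting is not given, so a part of these low values may belong to the neighbours. Many of the low values rest on small steps. For 9 genes of the pathway the mean was under 0.3 FPKM with no replicate at 0. In 6 of them the quotient of the replicates matched one of small whole numbers (8 at most) with a tolerance of 0.01 in log2. Replicate 1 to replicate 2, it was 2 to 5 for Bmp6, 3 to 1 for Tgfb3, 1 to 7 for Grem1, 4 to 7 for Bmpr1b and 4 to 5 for Inhbb and Bmp1. Gdf9, Bmp8b and Tgfb2 did not match. Over all genes, 67.0% of the 2288 with a mean under 0.1 FPKM and no replicate at 0 matched. Such steps were thus common to low genes in general. That limit is lower than the 0.3 used for the pathway genes, so the shares are not strictly comparable. In the order of ligands by level, 6 of 16 neighbouring pairs overlapped between replicates, all of them below Gdf9 or among Bmp8b, Tgfb2 and Inhbb.

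Proprotein convertases cut the Nodal precursor to release the active ligand. Pcsk6 (chromosome 7, 65862136 to 66050386), also known as PACE4, was at 17.9 and 16.7 FPKM. Furin, a convertase present in many cell types, was at 0.891 and 0.731 FPKM, below detection in both replicates. Pcsk6 exceeded Furin by 4.42 ± 0.13 in log2 (SD, n = 2) and held 95.3% and 95.8% of their sum. Bmp1, which despite its name is a metalloprotease that cleaves chordin and procollagens, was at 0.0585 and 0.0730 FPKM.

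The Lefty genes were the highest of the antagonists. Lefty2 (chromosome 1, 180893108 to 180899107) was at 211 and 174 FPKM, and Lefty1 (chromosome 1, 180935022 to 180938401) at 89.8 and 66.8. The genes are neighbours, 35.9 kb apart, and are close copies, so reads may be divided between them and their sum is the safer value. Summed Lefty was 301 FPKM in replicate 1 and 240 in replicate 2, against 37.3 and 34.3 FPKM for Nodal. It exceeded Nodal by 8.07 times in replicate 1 and 7.01 times in replicate 2, or 2.91 ± 0.14 in log2 (SD, n = 2). Cer1, which binds and blocks Nodal and BMPs and marks anterior endoderm, was listed at 0 in both replicates.

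Antagonists of activin and BMP were mostly low. Fst, follistatin, which traps activin, was at 5.55 and 6.18 FPKM. Fstl1, a secreted relative of follistatin, was at 24.0 and 23.1 FPKM below only the Lefty genes among the antagonists. Fstl3, another activin-binding relative, was at 0.0148 in replicate 2 and listed at 0 in replicate 1. Chrd, chordin, which sequesters BMPs, was at 0.664 and 0.648 FPKM, and Nog, noggin, was listed at 0 in both replicates. Grem1, a BMP antagonist made by mesenchymal cells, was at 0.0263 FPKM in replicate 1 and 0.184 in replicate 2, with the larger value in the library where the fibroblast markers were also higher. The part of those markers in this difference was not tested.

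Tdgf1 (chromosome 9, 110939608 to 110946158), the Cripto co-receptor through which Nodal reaches its receptors, was the highest gene of the pathway at 215 and 205 FPKM. It stood at percentile 98.2 of all genes in the table, with Lefty2 at 98.1, Lefty1 at 95.3, Gdf3 at 94.2 and Nodal at 90.3. Its level was 5.75 times that of Nodal in replicate 1 and 5.98 times in replicate 2. Cfc1 (Cryptic), the other EGF-CFC co-receptor, which acts in left-right patterning, was at 0.0312 in replicate 1 and listed at 0 in replicate 2. Tgfbr3, betaglycan, which presents TGF-beta2 and inhibin to other receptors, was at 1.12 and 1.33 FPKM.

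Type I receptors of both branches were present. Bmpr1a (chromosome 14, 34411061 to 34503336), a receptor for BMP2 and BMP4, was highest at 14.9 and 15.5 FPKM. Tgfbr1, the TGF-beta type I receptor, followed at 13.8 and 14.1, and Acvr1b (ALK4), the usual type I receptor for activin and Nodal, at 9.99 and 10.1. Their replicate values did not overlap, so this order held in both libraries. Acvr1 (ALK2), a type I receptor for BMP6 and BMP7, was at 1.73 and 1.62 FPKM. Bmpr1b was at 0.123 and 0.213 FPKM. Acvr1c (ALK7), an alternative Nodal receptor, was at 0.00636 in replicate 1 and listed at 0 in replicate 2. Summed, the type I receptors of activin, Nodal and TGF-beta were at 23.8 and 24.1 FPKM, and those of the BMPs at 16.8 and 17.3. The difference was 0.49 ± 0.02 in log2 (SD, n = 2).

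Type II receptors were lower. Acvr2b was at 4.10 and 3.54 FPKM and Acvr2a at 3.07 and 3.20, and both serve activin, Nodal and several BMPs. Acvr2a overlaps Orc4 by 441 bases, and Orc4 was at 40.3 and 44.8 FPKM. Bmpr2, the type II receptor dedicated to BMPs, was at 0.977 in replicate 1 and 1.43 in replicate 2, on either side of the detection limit. Tgfbr2, which TGF-beta requires, was at 0.660 and 0.749 FPKM, below the limit in both. Tgfbr1 thus exceeded its partner Tgfbr2 by 4.31 ± 0.11 in log2 (SD, n = 2). The 6 type I receptors together exceeded the 4 type II receptors by 4.61 times in replicate 1 and 4.65 times in replicate 2, or 2.21 ± 0.01 in log2 (SD, n = 2). The sum rests on Bmpr1a, Tgfbr1 and Acvr1b, since the other type I receptors were below Acvr2b and Acvr2a. The medians were 5.86 and 5.85 FPKM for type I and 2.02 and 2.32 FPKM for type II receptors. No neighbours in the order of the 10 receptors overlapped between replicates.

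Smad2, the main transducer of Nodal and activin, was the highest Smad at 25.6 and 25.2 FPKM, and Smad3 was at 5.73 and 5.46. Smad2 exceeded Smad3 by 2.18 ± 0.03 in log2 (SD, n = 2) and held 81.7% and 82.2% of their sum. On the BMP side Smad1 was at 5.13 and 5.39 FPKM, Smad5 at 4.49 and 4.68 and Smad9 at 1.35 and 1.39. Summed FPKM was 31.4 and 30.7 for Smad2 and Smad3, against 11.0 and 11.5 for Smad1, Smad5 and Smad9. The ratio was 2.86 in replicate 1 and 2.68 in replicate 2, or 1.47 ± 0.07 in log2 (SD, n = 2). Smad4, the partner shared by both branches, was at 22.6 and 21.6 FPKM. The inhibitory Smad7, which targets type I receptors of all branches, was at 12.4 and 10.001 FPKM, and Smad6, which acts mainly on BMP signalling, was at 3.80 and 2.54. Smad7 exceeded Smad6 by 1.84 ± 0.19 in log2 (SD, n = 2). No neighbours in the order of the 8 Smads overlapped between replicates. Smad2, Smad4 and Smad7 all lie on chromosome 18.

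**Figure D3:**
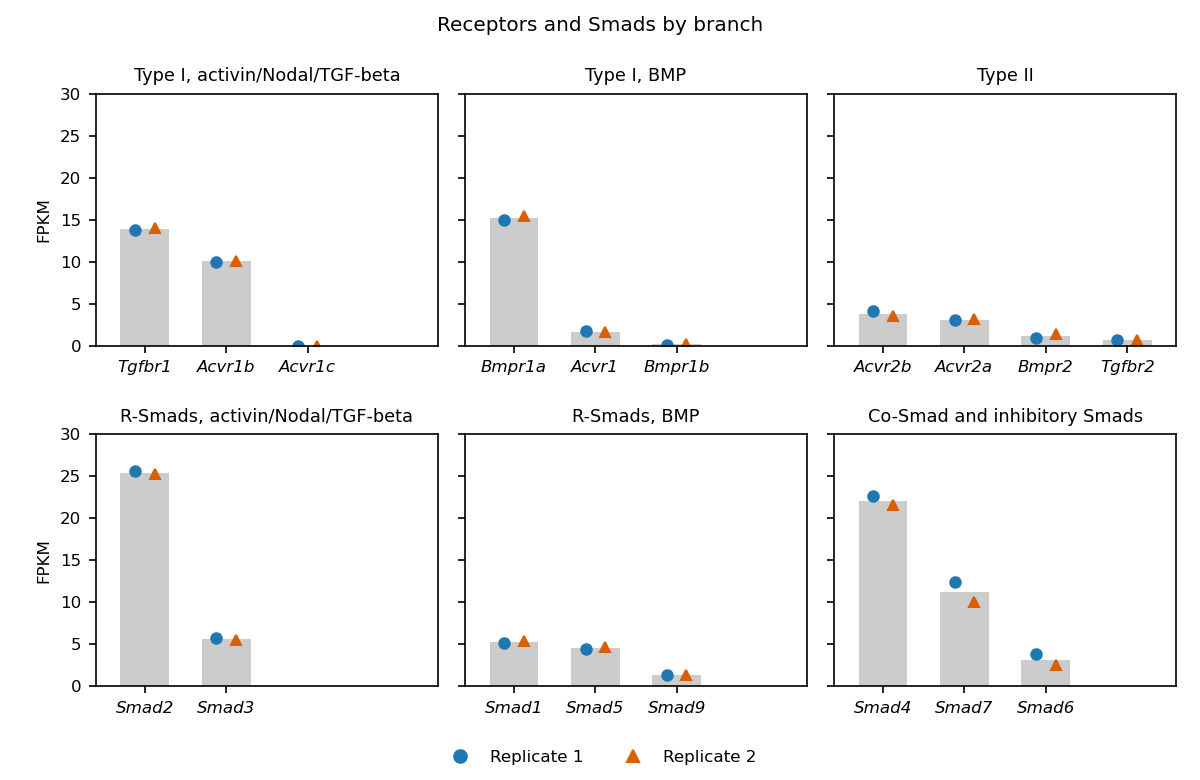
FPKM of type I receptors, type II receptors and Smads, with bars for the mean of the replicates, circles for replicate 1 and triangles for replicate 2. Tgfbr1, Acvr1b and Bmpr1a stand near 10 to 15, the other type I receptors and all type II receptors stand under 5, and Smad2 and Smad4 stand above 20.

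Foxh1 (chromosome 15, 76667829 to 76671614), the forkhead factor that recruits Smad2 and Smad4 to Nodal targets, was at 27.6 and 25.8 FPKM, just above Smad2. It overlaps Kifc2 by 368 bases, and Kifc2 was at 3.99 and 3.53 FPKM. Skil (SnoN) and Ski are co-repressors of Smad complexes, and Skil is itself a target of the pathway. Skil was at 16.3 and 15.8 FPKM and Ski at 3.92 and 4.10, a difference of 2.00 ± 0.08 in log2 (SD, n = 2). The ubiquitin ligases Smurf2 and Smurf1, which mark Smads and receptors for degradation, were at 12.7 and 13.4 FPKM and at 5.86 and 6.45 FPKM. All 5 genes kept separate replicate ranges in the order Foxh1, Skil, Smurf2, Smurf1, Ski.

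On the FPKM + 1 scale 0 of the 31 pathway genes at a mean of at least 1 differed by more than 1.5-fold between replicates, against 0.975% of all genes at that level. Over all 55 genes the count was also 0, against 0.686% of all genes in the table, but that scale hardly allows such a change near 0, where Grem1 differed 6.98-fold and Tgfb3 3.01-fold without it. Lefty1 and Lefty2 lay outside the range that holds 95% of genes of their level, 2 of 31 (6.45%) where 5% of all genes do by construction. The log2 ratio of replicate 2 over replicate 1 was -0.42 for Lefty1, where 95% of the 3225 genes with a mean FPKM of 20 to 100 lay within 0.23 of equality. It was -0.28 for Lefty2, where 95% of the 1054 genes at 100 or more lay within 0.22. Both were lower in replicate 2, as were Nodal (-0.12), Smad7 (-0.28) and Smad6 (-0.44), which lay within the range of genes of their level. Other members went the other way within that range, such as Bmpr2 (0.30), Fst (0.13) and Tgfbr3 (0.13). Tdgf1 (-0.07) and Skil (-0.04) changed little, so no common shift of the branch is shown. The limit for 1 to 5 FPKM was 0.46 and that for 5 to 20 was 0.31. Of the 31 pathway genes at a mean of at least 1, 18 were higher in replicate 1 (58.1%), against 51.3% of all genes at that level. Their median log2 ratio was -0.04, against -0.0038 for all genes at that level.

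**Figure D4:**
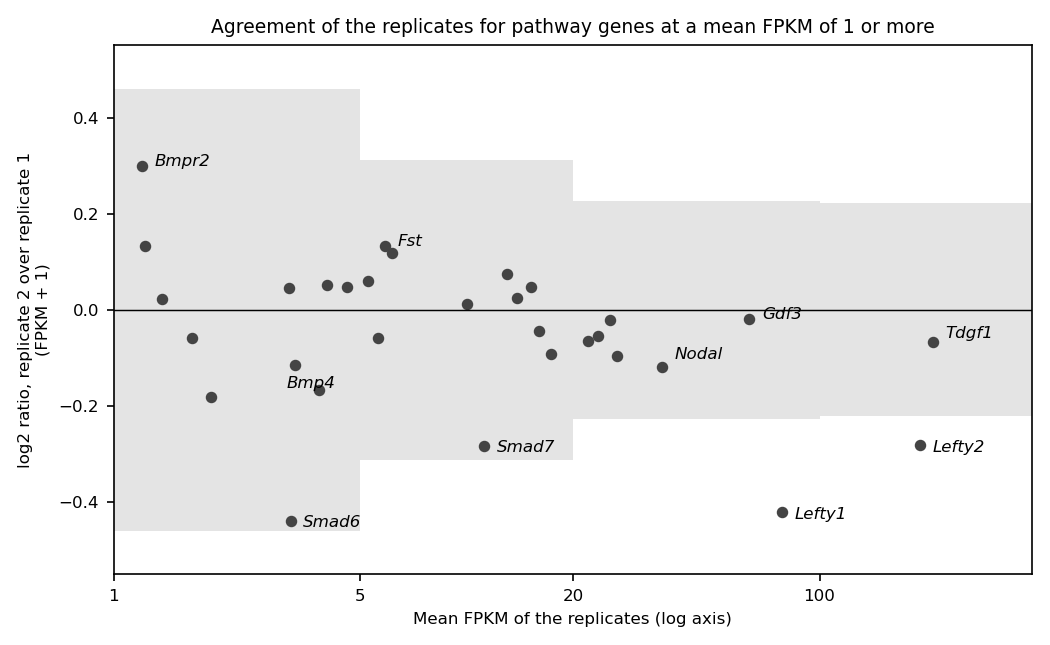
Log2 ratio of replicate 2 over replicate 1 on the FPKM + 1 scale against mean FPKM (log axis) for the 31 pathway genes at a mean of at least 1. Grey bands hold 95% of all genes of that level, and Lefty1 at -0.42 and Lefty2 at -0.28 are the points outside them.

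Genes known as targets of the branches were listed next, from textbook knowledge, and several are members of the pathway themselves. In the Nodal and activin list 8 of 15 genes were detected, with Tdgf1, Lefty2 and Lefty1 highest, all of them pathway genes. The share was 53.3%, near the 50.6% of protein-coding genes in general, but 7 of the 15 are pathway members. Of the 8 genes of that list that are not pathway members 2 were detected, T and Gsc. That is below the 50.6%, but with so few genes it cannot be told from it. T, the mesoderm factor brachyury, was at 12.9 and 11.9 FPKM, and Gsc, the organizer factor goosecoid, at 3.43 and 2.87. Eomes and Mixl1, factors of mesendoderm, were at 0.527 and 0.520 and at 0.0622 and 0.0994 FPKM, and Foxa2, a factor of endoderm, was listed at 0 and at 0.0393.

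In the BMP list 7 of 10 were detected (70%), and 5 of the 8 that are not pathway members, against 50.6% of protein-coding genes in general. Id4, Smad7 and Id3 were the highest. The Id genes encode inhibitors of basic helix-loop-helix factors. Id4 was at 26.5 and 23.0 FPKM, Id3 at 7.70 and 4.66 and Id1 at 3.05 and 3.83. Id2 was at 0.684 and 0.782, below the limit. In the TGF-beta list 5 of 8 were detected (62.5%), and 3 of the 6 that are not pathway members, against the same 50.6%. Skil, Cdkn1a and Smad7 were the highest. With so few genes, neither share can be told from that of coding genes. Cdkn1a, a cyclin-dependent kinase inhibitor, was at 13.3 and 13.9 FPKM. List medians in replicates 1 and 2 were 3.43 and 2.87 for Nodal and activin, 3.46 and 3.37 for BMP and 2.93 and 2.69 for TGF-beta targets, against 1.22 and 1.21 over protein-coding genes and 0.221 and 0.234 over all genes. The lists include pathway members and hold few genes. These genes also answer to other signals, so their levels do not measure the activity of a branch.

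**Figure D5:**
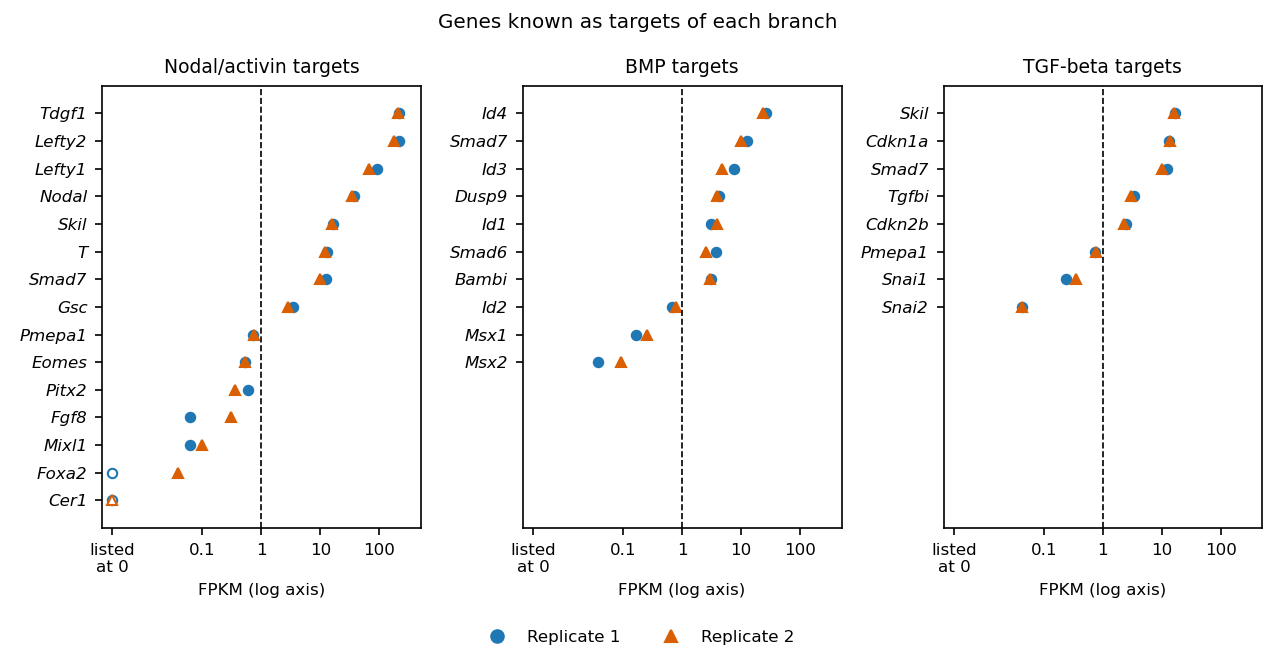
FPKM (log axis) of genes listed as targets of Nodal and activin, BMP and TGF-beta in replicate 1 (circles) and replicate 2 (triangles), with open symbols for values listed at 0. Detected genes, right of the dashed line at 1, number 8 of 15, 7 of 10 and 5 of 8 with pathway members included, against 50.6% of protein-coding genes. Smad7 appears in all 3 lists.

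Of 60 other genes of the pathway 29 were detected (48.3%), near the 50.6% of protein-coding genes. Among 13 further ligands 1 was detected, Gdf15, a stress-induced member of the family, at 3.20 and 2.64 FPKM, and Bmp8a and Amh came next. Of 19 further extracellular regulators 4 were detected. Ltbp4, which tethers latent TGF-beta to the matrix, was at 14.1 and 13.6 FPKM, the BMP regulator Twsg1 at 6.60 and 6.23, the protease Htra1 at 1.79 and 2.17 and the Nodal antagonist Dand5 at 1.19 and 1.11. Of 8 further receptors and co-receptors 5 were detected, led by Amhr2 (5.49 and 4.41), Eng (3.73 and 2.68) and the decoy receptor Bambi (3.13 and 2.92). Inside the cell 19 of 20 regulators were detected. The deubiquitinase Usp9x, which acts on Smad4, was at 176 and 185 FPKM, the receptor-associated inhibitor Strap at 69.2 and 72.3 and the Smad co-repressor Tgif1 at 44.1 and 43.3. Nedd4l, a ligase for Smad2 and Smad3, was the 1 not detected, at 0.547 and 0.664.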

How the data were processed

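The authors deposited 1 table of FPKM per gene, with a column per replicate whose name equals the sample's description. The tools were CASAVA, TopHat2 and Cufflinks and the builds mm10 and GRCm38, per the submitters' processing notes. Not given in the sources used here are versions, annotation release, use of strand, row filters and scaling between libraries. The columns summed to 946498 FPKM (replicate 1) and 928174 FPKM (replicate 2). Depth in reads is unknown. Low genes were here those with a mean under 0.1 FPKM and no replicate at 0. Of these 2288 genes 67.0% had a whole-number ratio between replicates if a read was worth 1.00 times as much in replicate 2. The median was 11.1% over the worths tried, and 33.0% of the genes had no such ratio at 1.00. A value of 0 can be a failed Cufflinks estimate. Symbols were matched by Ensembl identifier for 28256 genes, and spans, types and promoters came from RefSeq on GRCm38.p6 by symbol.

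Detection required an FPKM of 1 or more in each replicate. Log2 values used a pseudocount of 1 where stated, and ratios of levels used none. Neighbours in an order were called separate where their replicate values did not overlap. Calculations used Python 3.11.15, numpy 2.4.6 and pandas 2.3.3. Only the relative worth of a read and the 1.5-fold rule, the latter for genes above the detection limit, were tried on simulated data. Members, roles, gene lists and alternatives were chosen with earlier results of these data known. Values of both replicates are given for all detected members and for members of key roles, and for lists the 3 highest genes are named; other list genes were named after their values were seen, as were the 4 promoters and the motifs. The alternatives were other detection limits, pseudocounts, TPM, a filter on low genes, centring and leaving out each replicate. Of the listed genes 1 is not reported here.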

Additional observations from a re-analysis of the deposited data

How the results depend on the processing

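No paired analysis was possible because there was 1 group. Of 51 alternative values 34 stayed within 1 SD of the replicates (counts: within 1.5 times) and 17 moved. For log2 ratios and the role difference, leaving out 1 of 2 replicates always stays within 1 SD, so those outcomes were fixed in advance. The same holds for role medians midway between those of the replicates. A filter on low genes could not raise the count of 0 past 1.5-fold. The 34 are therefore no measure of robustness. No difference or ratio changed sign, but the order of role medians changed with the filter on low genes. Detected members numbered 42, 35 and 20 at limits of 0.1, 0.5 and 5 FPKM, 31 after rescaling to TPM, and 30 to 31 when a replicate was left out; the gene gained was Bmpr2. Rescaled to TPM, medians were 0.700 for antagonists (0.656 over members' means as deposited), 2.56 for receptors (2.40), 5.79 for Smads (5.43) and 13.9 for partners, co-repressors and ligases (13.0), a change of scale by construction. Without members under a mean FPKM of 0.1, medians were 0.481 for ligands (0.178 with all), 9.05 for proteases (0.811), 14.7 for antagonists (0.656), 106 for co-receptors (1.23) and 3.13 for receptors (2.40), since fewer genes entered. Antagonists and proteases then stood above receptors and Smads (5.43). The ligand median was 0.138 to 0.160 when a replicate was left out. The excess of receptors and Smads over ligands and antagonists was 2.06 and 2.98 with pseudocounts of 0.1 and 0.01, and 0.21 with the filter. With a pseudocount of 1 the log2 ratio of summed Smads was 1.39 and that of summed type I receptors 0.47. With a pseudocount of 0.1, 1 member (Grem1) passed 1.5-fold between replicates, as did 8.88% of all genes. Depth in reads is unknown, so no counting interval can be given for genes near 0.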

Other observations

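Amhr2, the receptor for anti-Mullerian hormone, was at 5.49 and 4.41 FPKM in replicates 1 and 2, above each of the type II receptors among the pathway members, and its ligand gene Amh was at 0.232 and 0.160. Dusp9, a phosphatase that acts on ERK and is known in ES cells as a BMP target, was at 4.20 and 3.92 FPKM. Id3 was lower in replicate 2 and Id1 higher (log2 ratios of -0.62 and 0.26 on the FPKM + 1 scale). Fgf8 was at 0.0616 in replicate 1 and 0.310 in replicate 2.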
